A study of Homo sapiens with 2 samples.

Results

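RAS proteins are small membrane-bound GTPases that switch on the RAF kinases when loaded with GTP. RAF phosphorylates MEK, MEK phosphorylates ERK, and neurofibromin, the product of NF1, returns RAS to its inactive GDP form. Activating mutations of this cascade are common in multiple myeloma (MM), a cancer of plasma cells. RNA levels, which were measured here, do not report GTP loading or phosphorylation.

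From the top of the cascade to the bottom, 7 genes named by symbol were followed, of the 57485 genes in the deposited tables. They are HRAS and NRAS (RAS GTPases), NF1 (the RAS GTPase-activating protein), BRAF (a RAF kinase), MAP2K1 and MAP2K2 (which encode MEK1 and MEK2) and MAPK3 (which encodes ERK1). Their rows were found by gene symbol in both tables, and all 7 passed the filter of at least 1 FPKM (fragments per kilobase of effective length, scaled to the library total) in at least 1 library. The other RAS, RAF and ERK genes are in neither these 7 nor the lists below and were not analysed here, so no count below describes the whole families. In the library without Dox the 7 genes ranged from 8.65 to 95.6 FPKM.

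The 2 RNA-seq libraries came from ARP1, a human MM cell line, carrying a doxycycline (Dox)-inducible lentiviral hairpin against SRD5A1 in the TRIPZ vector. There was 1 library of untreated cells and 1 of Dox-treated cells, both with the hairpin construct. With 1 library each, differences have no replicate check. Both sample titles name SRD5A1, while the genotype label of the Dox-treated library names SRD5A2. The tables held 45918570 expected counts without Dox and 48728927 with Dox. SRD5A1, which the hairpin targets, had 1375 counts (13.04 FPKM) without Dox and 3014 counts (25.88 FPKM) with Dox, so the RNA did not follow the label. Every direction below therefore refers to the libraries as labelled. All 8 plasma cell markers were above 15 FPKM in both libraries, among them XBP1 (834 and 716 FPKM) and SDC1 (345 and 237 FPKM), both outside the rule for named genes and chosen after their values were seen. The B cell marker CD22, chosen in the same way, was listed at 0 in both libraries, and the 6 T cell and myeloid markers stayed at or below 0.520 FPKM. TNFRSF17 and SLAMF7, plasma cell surface antigens, were past 2-fold higher with Dox with the deposited FPKM (97.7 and 204 FPKM, 15.7 and 41.8 FPKM). The log2 ratio of TNFRSF17 fell short of 2-fold with the TMM factors (0.84), the DESeq2 size factors (0.84) and centring on the median of all genes (0.91). PAX5 and BCL6, B cell factors, were listed at 1.32 and 0.79 FPKM and at 0.49 and 4.51 FPKM. The part of these marker differences in the results was not tested. In bulk RNA, fewer cells of a type and less RNA per cell cannot be told apart.

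Among the 7 genes, BRAF RNA was 3.21-fold higher in the library labelled with Dox, HRAS RNA was 1.57-fold lower and NF1 RNA was 1.36-fold higher. The other 4 genes, NRAS, MAP2K1, MAP2K2 and MAPK3, lay within 0.1 of 0 on the log2 scale. A pseudocount of 0.1 was added to each FPKM before the log2 ratio of the libraries, with Dox over without, was taken, so that changes of genes at low levels are understated. The interval beside each ratio is an exact binomial (Clopper-Pearson) 95% interval of the counts and covers counting error only. Past 2-fold, 1 of the 7 genes was higher and 0 were lower. Of the 14859 genes tested, 17.0% were past 2-fold higher and 6.41% past 2-fold lower. Of the 10480 genes with at least 5 FPKM in a library, as all 7 had, these shares were 12.0% and 5.75%, so 1 of 7 is near the background. The median log2 ratio of the 7 genes was 0.05, beside 0.15 over all genes tested and 0.08 over the genes with at least 5 FPKM.

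**Figure D1:**
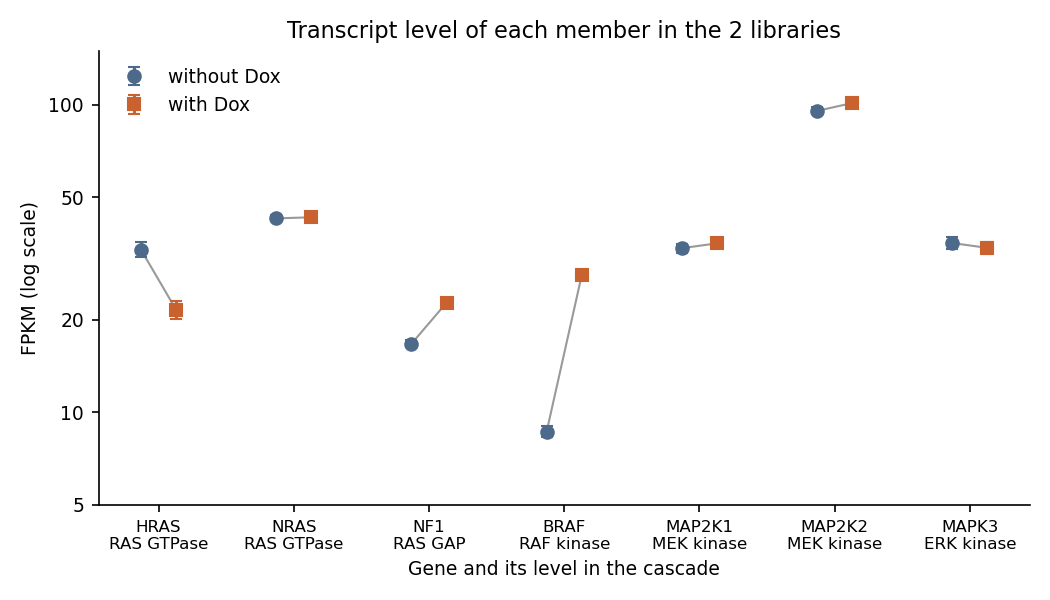
FPKM of each gene (log axis) in the library labelled without Dox (circles) and with Dox (squares), ordered by level in the cascade, with exact Poisson 95% intervals of the counts as bars, many of them smaller than the symbols. BRAF moved from 8.65 to 28.0 FPKM, HRAS from 33.8 to 21.6 and NF1 from 16.7 to 22.7, while the other 4 genes stayed near their level.

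How the libraries are scaled to each other decides the sign of the small ratios. The median of all tested genes moved by -0.23 with the TMM factors of edgeR, by -0.23 with the size factors of DESeq2 and by 0.11 with TPM. Among all genes past 2-fold, 72.6% were higher with the deposited FPKM and 54.2% with the TMM factors. BRAF and NF1 were higher and HRAS was lower under each of the 9 alternatives tried, with log2 ratios of 1.47 to 1.78 for BRAF, 0.22 to 0.54 for NF1 and -0.87 to -0.55 for HRAS. The filters and pseudocounts among these alternatives cannot change the sign of a ratio, so only the scalings and the length could. NRAS, MAP2K1, MAP2K2 and MAPK3 changed sign between the scalings and have no direction here. Relative to the median of all tested genes, the log2 ratios were 1.53 for BRAF, 0.29 for NF1, -0.07 for MAP2K2, -0.10 for MAP2K1, -0.14 for NRAS, -0.21 for MAPK3 and -0.80 for HRAS.

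**Figure D2:**
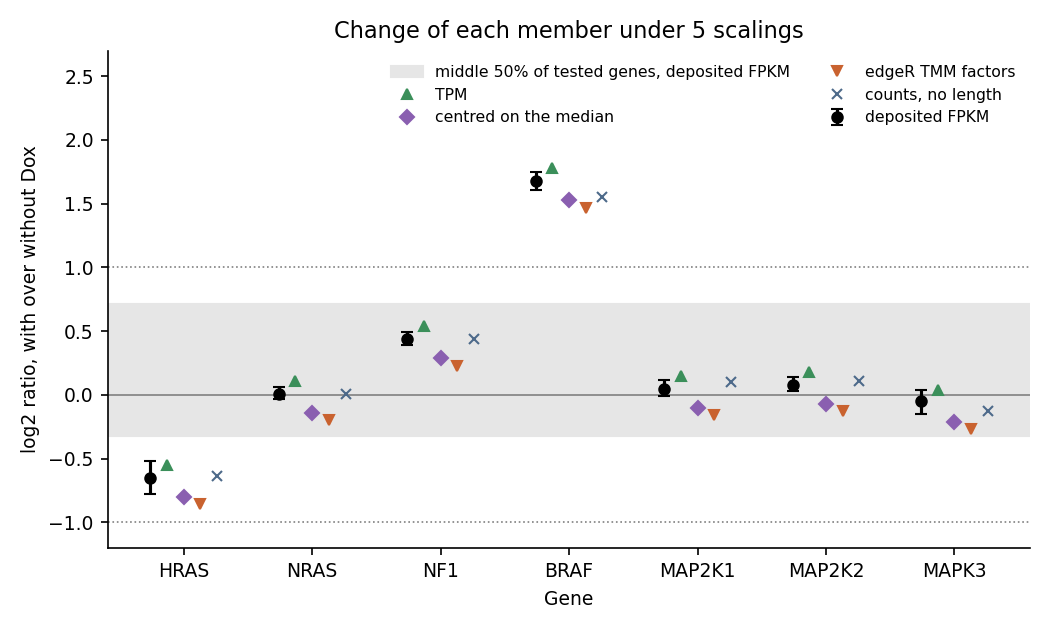
The log2 ratio with over without Dox (vertical axis) of each gene under 5 scalings, with the counting interval on the deposited FPKM, the middle 50% of all tested genes in grey (-0.32 to 0.71) and dotted lines at 2-fold. BRAF lies above the upper dotted line under each scaling shown and HRAS below the grey band, while the 4 genes near 0 cross the zero line between scalings.

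HRAS and NRAS encode RAS proteins that are close to identical in the catalytic domain and differ in the tail that carries the lipid anchors. HRAS (ENSG00000174775.16) lies on the reverse strand of chromosome 11 from 532242 to 537287 in GRCh38. It was listed with 1159 counts and 33.8 FPKM without Dox (Poisson interval 31.9 to 35.8) and with 790 counts and 21.6 FPKM with Dox (20.1 to 23.1). The intervals do not overlap, and the log2 ratio was -0.65 (counting interval -0.78 to -0.52), lower than in 86.7% of the genes with at least 5 FPKM. HRAS was the member with the fewest counts and the only one of the 7 genes below -0.32, the lower quartile of all tested genes, with the deposited FPKM.

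NRAS (ENSG00000213281.4, reverse strand of chromosome 1 from 114704469 to 114716894) was the member with the most counts in both libraries, 8256 and 8827. Its level was 42.8 FPKM without Dox and 43.1 FPKM with Dox, a log2 ratio of 0.01 (counting interval -0.03 to 0.06), with overlapping intervals of the levels. NRAS is listed with 1 transcript, so its effective length, 4206 and 4203 bases, was nearly the same in both libraries. Within a library, the ratio of HRAS to NRAS does not depend on the scaling. HRAS stood at 0.791 of the NRAS level without Dox and lower with Dox, a change of the ratio by -0.66 on the log2 scale (exact counting interval -0.80 to -0.52).

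The reads that could be shared by the paralogs were looked at in the reference coding sequences of GENCODE release 29. The coding sequences of HRAS and NRAS are both 567 bases long without the stop codon and are identical at 73.0% of the bases. The longest run of bases that they share is 14 bases, well under the read length of 150 bases.

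NF1 encodes neurofibromin, the GTPase-activating protein that turns RAS off, and is found on chromosome 17 (forward strand, 31094927 to 31382116, ENSG00000196712.17). It was listed with 5078 counts and 16.7 FPKM without Dox (Poisson interval 16.3 to 17.2) and with 7304 counts and 22.7 FPKM with Dox (22.2 to 23.3). The log2 ratio was 0.44 (counting interval 0.39 to 0.49), inside the middle 50% of all tested genes. OMG, EVI2A and EVI2B lie on the other strand within NF1 and are given here because the counting is not stated to use strand. EVI2A was listed at 145 and 131 FPKM and EVI2B at 159 and 163 FPKM, log2 ratios of -0.15 and 0.04, and OMG stayed below 1 FPKM. Exons of EVI2A and NF1 overlap by 152 bases. The NF1 pseudogenes NF1P1, NF1P2 and NF1P3 were listed at 0 counts in both libraries, and whether their reads were assigned to NF1 was not tested.

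BRAF, the RAF kinase that phosphorylates MEK, had the lowest level of the 7 genes without Dox and the largest difference. The gene (ENSG00000157764.13) lies on the reverse strand of chromosome 7 from 140719327 to 140924928. It was listed with 2260 counts and 8.65 FPKM without Dox (Poisson interval 8.30 to 9.02) and with 7042 counts and 28.0 FPKM with Dox (27.3 to 28.7). The log2 ratio was 1.68 (counting interval 1.61 to 1.75), and 4.08% of the genes with at least 5 FPKM had a higher one. BRAF went from above 46.8% of the tested genes by FPKM to above 72.0%. Its level relative to MAP2K1 within a library went from 0.253 to 0.789, and relative to NF1 from 0.518 to 1.23.

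Part of the BRAF ratio on the FPKM scale comes with the length used. The mean BRAF transcript length in the tables, which is weighted by the estimated amount of each transcript, was 5932 bases without Dox and 5409 bases with Dox. The effective length changed by -0.14 on the log2 scale, more than for the other 6 genes. Without any length, BRAF counts over the library total had a log2 ratio of 1.55, still past 2-fold. BRAF is listed with 21 transcripts of 439 to 9578 bases, of which 5 are annotated as protein-coding, 7 as retained introns and 6 as targets of nonsense-mediated decay. The tables give no value per transcript, so which of them carried the difference was not analysed here. Exons of BRAF overlap those of NDUFB2, a respiratory complex I subunit on the other strand, by 1239 bases. NDUFB2, picked by this overlap and outside the rule for named genes, had 1444 counts in the library without Dox and 714 in the other, the opposite direction to BRAF. Without stated strand, reads from the shared bases cannot be told apart.

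MAP2K1 and MAP2K2 encode MEK1 and MEK2, the kinases between RAF and ERK. MAP2K2 (ENSG00000126934.13, reverse strand of chromosome 19 from 4090321 to 4124129) had the highest level of the 7 genes in both libraries, 95.6 and 101 FPKM from 5502 and 6314 counts. Its log2 ratio was 0.08 (counting interval 0.03 to 0.14) with the deposited FPKM and -0.13 with the TMM factors. MAP2K1 (ENSG00000169032.9, forward strand of chromosome 15 from 66386817 to 66492312) was listed at 34.2 and 35.5 FPKM from 3551 and 4039 counts, a log2 ratio of 0.05 (counting interval -0.01 to 0.12). The ratio of MAP2K1 to MAP2K2 was 0.358 without Dox and 0.350 with Dox, a log2 difference of -0.03 whose interval, -0.12 to 0.05, holds 0. Exons of MAP2K1 overlap those of SNAPC5, a subunit of a complex that activates transcription of small nuclear RNA genes, by 216 bases. SNAPC5, also picked by the overlap, was listed at 51.8 and 54.3 FPKM. The pseudogene MAP2K1P1 was listed at 0 counts in both libraries.

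The coding sequences of the MEK genes, 1179 and 1200 bases, are identical at 73.0% of the aligned positions. The longest run they share is 38 bases, from 640 to 677 in MAP2K1 and from 652 to 689 in MAP2K2 counted from the A of the start codon, again shorter than a read. It is given in capitals with 15 bases on each side. Stretches of a full read length were not compared.
MAP2K1: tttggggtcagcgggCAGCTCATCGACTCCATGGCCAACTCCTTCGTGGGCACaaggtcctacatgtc
MAP2K2: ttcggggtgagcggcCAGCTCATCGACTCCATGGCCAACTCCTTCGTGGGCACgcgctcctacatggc

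MAPK3, which encodes ERK1 at the bottom of the cascade, lies on the reverse strand of chromosome 16 from 30114105 to 30123506 (ENSG00000102882.11). It was listed with 1815 counts and 35.5 FPKM without Dox (Poisson interval 33.9 to 37.2) and with 1764 counts and 34.3 FPKM with Dox (32.7 to 35.9). The intervals overlap and the log2 ratio was -0.05 (counting interval -0.15 to 0.04).

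By FPKM, the order without Dox was MAP2K2, NRAS, MAPK3, MAP2K1, HRAS, NF1 and BRAF. With Dox the order was MAP2K2, NRAS, MAP2K1, MAPK3, BRAF, NF1 and HRAS. The Poisson intervals of MAPK3, MAP2K1 and HRAS overlapped without Dox, and so did those of MAP2K1 and MAPK3 with Dox and those of NF1 and HRAS with Dox, so these neighbours cannot be ordered. BRAF moved up past NF1 and HRAS, and its interval with Dox did not overlap theirs.

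Promoters are printed for BRAF, NF1 and HRAS, the 3 genes whose direction was shared by the 9 alternatives tried. They are RefSeq sequences of GRCh38.p14, 250 bases before to 50 after the start, and all 7 genes matched the table. The letters CCAAT of the CCAAT box, GGGCGG of the GC box, TGACGTCA of the cAMP response element and TGATGCAA of a C/EBP-ATF response element were searched on both strands, and matches stand in capitals. None of the printed matches overlaps another. Among 35116 promoters in the table, 34.6% hold CCAAT, 45.0% GGGCGG, 1.85% TGACGTCA and 0.866% TGATGCAA.
BRAF, chr7:140924219-140924518, reverse strand: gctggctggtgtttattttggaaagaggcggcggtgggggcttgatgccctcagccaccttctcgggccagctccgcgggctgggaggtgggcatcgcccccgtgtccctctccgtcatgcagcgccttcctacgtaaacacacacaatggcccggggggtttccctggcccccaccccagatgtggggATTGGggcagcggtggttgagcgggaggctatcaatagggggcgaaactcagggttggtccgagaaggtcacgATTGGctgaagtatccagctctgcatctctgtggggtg
NF1, chr17:31094727-31095026, forward strand: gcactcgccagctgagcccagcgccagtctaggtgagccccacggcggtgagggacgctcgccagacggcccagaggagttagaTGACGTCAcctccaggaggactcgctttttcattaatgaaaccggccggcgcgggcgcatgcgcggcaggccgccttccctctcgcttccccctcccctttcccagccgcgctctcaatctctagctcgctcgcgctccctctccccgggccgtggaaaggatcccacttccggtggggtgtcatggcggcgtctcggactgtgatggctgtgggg
HRAS, chr11:535527-535826, reverse strand: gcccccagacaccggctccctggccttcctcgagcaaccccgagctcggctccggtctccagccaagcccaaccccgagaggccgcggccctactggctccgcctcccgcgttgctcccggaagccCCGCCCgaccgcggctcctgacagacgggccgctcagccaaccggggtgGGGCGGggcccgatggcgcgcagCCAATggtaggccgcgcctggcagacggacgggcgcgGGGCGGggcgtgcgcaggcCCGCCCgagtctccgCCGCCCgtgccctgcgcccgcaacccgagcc

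The BRAF window holds CCAAT at 2 places, both read on the opposite strand, and no GGGCGG. The NF1 window holds TGACGTCA at 1 place. The HRAS window holds GGGCGG at 5 places and CCAAT at 1 place. The G and C share was 63.0% for BRAF, 67.0% for NF1 and 78.0% for HRAS, beside a median of 58.7% over all promoters in the table. The starts used for BRAF and HRAS lie inside the genes as annotated in GENCODE, and both genes are on the reverse strand. The BRAF window reaches 140924518 and the gene 140924928, and the HRAS window reaches 535826 and the gene 537287. Their windows therefore do not cover the outermost annotated start. The matches describe the letters only.

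Around the 7 genes, 8 lists of pathway genes compiled by role held 104 genes, of which 103 were in the tables by symbol and 91 were tested. Among these 91 genes, 9 were past 2-fold higher with Dox, 9.89% beside the background of 17.0%, and 0 past 2-fold lower, beside 6.41%. With the TMM factors 5 were past 2-fold lower, beside 10.6% of all genes, so the absence of lower genes depends on the scaling. In the lists below, calls are with the deposited FPKM and are read beside these shares of all genes tested. The median log2 ratio over the 91 genes was 0.01, beside 0.15 over all genes tested. Of these genes, 77 had at least 5 FPKM in a library, and 7 of them were past 2-fold higher and 0 lower. This is 9.09% beside 12.0% of all genes at that level for higher, and 0 beside 5.75% for lower. The median of the 77 genes was 0.01, beside 0.08, so the difference from the background is smaller at that level.

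Upstream of RAS, adaptors carry the receptor signal to exchange factors that load RAS with GTP. Of 11 tested genes in this list, 3 were past 2-fold higher (27.3%, beside 17.0% of all genes) and 0 lower (beside 6.41%), with a median of 0.27 beside 0.15. GAB2, a docking adaptor, was listed at 1.80 and 10.3 FPKM, a log2 ratio of 2.45 (counting interval 2.31 to 2.60). SOS2, an exchange factor, was listed at 5.78 and 19.9 FPKM (log2 ratio 1.76). RASGRP3, a diacylglycerol-responsive exchange factor, was listed at 6.30 and 15.8 FPKM (log2 ratio 1.31). The paralog SOS1, named as the comparator of SOS2 after its values were seen, was listed at 13.1 and 17.1 FPKM. The ratio of SOS2 to SOS1 went from 0.442 to 1.16, a log2 difference of 1.39 (exact counting interval 1.27 to 1.51).

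Among the negative regulators of RAS that share a role with NF1, 0 of 11 tested genes were past 2-fold with the deposited FPKM, with a median of -0.02 and a range from -0.92 (RASAL3) to 0.97 (RASA2), both named after their values were seen. RASA2 passed 2-fold higher with TPM (1.07) and with counts and no length (1.06). RASAL3 passed 2-fold lower with the TMM factors (-1.13), the size factors (-1.14), centring (-1.07) and counts without length (-1.02). RASA1, a RAS GTPase-activating protein, was listed at 16.62 and 28.97 FPKM, and LZTR1, an adaptor for RAS ubiquitination, at 53.3 and 43.3 FPKM. In the other RAS-family GTPases, 1 of 7 genes was past 2-fold higher (14.3%), MRAS, from 1.03 to 2.24 FPKM and 91 to 279 counts. Its log2 ratio of 1.05 fell short of 2-fold with a pseudocount of 1 FPKM (0.67), the TMM or size factors (0.85 with both) and centring (0.90). It was below 5 FPKM and is named because the count is 1. RAP1A and RAP1B, the most abundant of this list, had log2 ratios of -0.44 and 0.01. The enzymes that add, trim or remove the lipid anchors of RAS and their partners gave 0 of 11 past 2-fold, with a range from -0.71 to 0.58. GOLGA7, a subunit of a RAS palmitoyltransferase, was listed at 48.3 and 72.0 FPKM, and LYPLA1, a depalmitoylase, at 77.1 and 47.2 FPKM.

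At the level of RAF and MEK, 1 of 20 tested scaffolds and regulators was past 2-fold higher, with a list median of 0.00. This was SHOC2, the scaffold of a phosphatase complex that removes an inhibitory phosphate from RAF, at 25.5 and 66.2 FPKM, a log2 ratio of 1.37 (counting interval 1.31 to 1.44). The catalytic subunits of protein phosphatase 1, PPP1CA, PPP1CB and PPP1CC, can partner SHOC2 in that complex. They were named after their values were seen and had log2 ratios of -0.32, 0.33 and -0.06.

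Downstream of ERK, 1 of 12 tested substrate kinases and transcription factors was past 2-fold higher (8.33%). RPS6KA2, which encodes the ribosomal S6 kinase RSK3, was listed with 90 counts and 0.740 FPKM without Dox and with 1567 counts and 8.74 FPKM with Dox, a log2 ratio of 3.40 (counting interval 3.09 to 3.72). The list of transcripts that are commonly read as output of ERK activity had 7 tested genes of 10, with a median of -0.33 beside 0.15 over all genes tested. ETV5, an ETS transcription factor, was past 2-fold higher, at 13.9 and 32.2 FPKM (log2 ratio 1.20), but just short of it with the TMM factors (0.99) and the size factors (0.98). DUSP6, DUSP4, SPRY4 and ETV4, named after their values were seen, had log2 ratios of 0.03, -0.33, -0.33 and -0.48, short of 2-fold. CCND1 and EPHA4, the rest of the tested list and also named after their values were seen, had log2 ratios of -0.60 and -0.14. CCND1 had 403 counts without Dox and 419 with Dox. EPHA4 had 85 counts without Dox and 124 with Dox, so its FPKM ratio below 0 comes with the length used. The lower quartile of all tested genes was -0.32, and no direction of the list is read from these 7 genes.

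**Figure D3:**
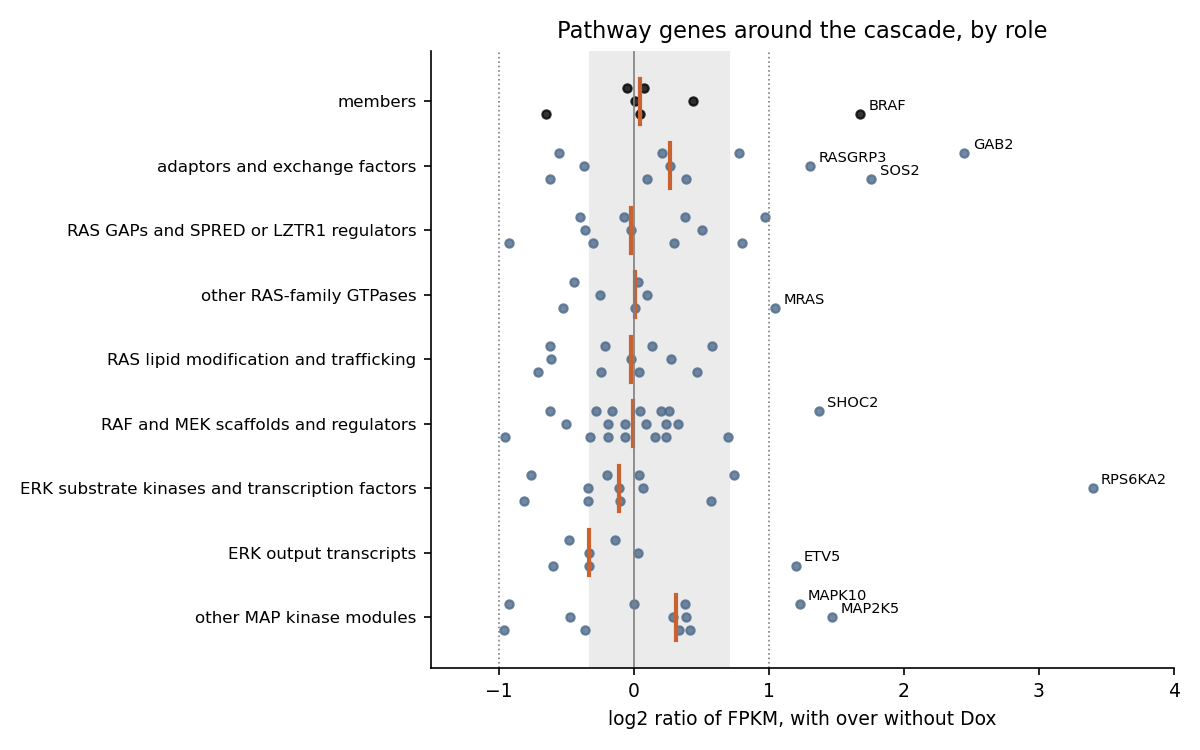
The log2 ratio of FPKM with over without Dox (horizontal axis) for each tested gene (points), with the 7 members in black on top and the pathway lists below, list medians as vertical bars, the middle 50% of all tested genes in grey and dotted lines at 2-fold. Genes past 2-fold are named, and all 9 outside the members lie on the higher side with the deposited FPKM.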

How the data were processed

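RNA from 1 library of untreated and 1 library of Dox-treated ARP1 cells was compared. Per the labels, poly(A) RNA was read in pairs of 150 bases, and the submitters' processing notes name Bowtie 0.12.2, HISAT2 2.1.0, StringTie 1.3.4d and hg19, with no roles. The authors deposited expected counts (estimated reads per gene), which were rounded for counting intervals and scaling factors. The authors deposited TPM, scaled by effective length to the same total per library. The authors deposited FPKM, scaled by effective length and library total. The tables carry no coordinates. All 85 transcripts of the 7 genes, and 202888 of 204675 listed transcripts, match GENCODE release 29, and gene positions are given from it (GRCh38).

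With 1 library per condition edgeR cannot estimate a dispersion, so no test was run and only the 2-fold threshold of the study was used. At these depths, 3 counts are 0.0653 and 0.0616 in 1000000 counts, and intervals cover counting error only. Python 3.11.15 (pandas 2.3.3, numpy 2.4.6, scipy 1.17.1, matplotlib 3.10.9), and R 4.3.3 with edgeR 4.0.16 and DESeq2 1.42.0 for scaling factors, were used. The fold and interval steps were tested on simulated data. The members and lists were chosen with earlier results of these data known. Named genes are the 7 genes, SRD5A1, genes nested in NF1, pseudogenes by symbol, and from each list up to 4 genes past 2-fold with at least 5 FPKM, or otherwise the 2 with the highest mean FPKM. Alternatives covered the pseudocount, the filter, the scaling and the length. A cell marker and a stretch of sequence are not reported here.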

Additional observations from a re-analysis of the deposited data

How the results depend on the processing

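No paired analysis was possible because each condition has 1 library, and no replicate could be left out. The count of genes past 2-fold among the 7 was 1 under each of the 9 alternatives. The filters could not change it, since all 7 had at least 5 FPKM in a library. The HRAS to NRAS and MAP2K1 to MAP2K2 differences stayed within their counting intervals with both other pseudocounts and with counts and no length, and cannot change by construction under the other alternatives for the filter and scaling. The count of pathway genes past 2-fold higher ranged from 7 to 11, among 77 to 103 tested. The share of all tested genes past 2-fold higher ranged from 10.8% to 19.8% over the same settings. The median log2 ratio of the 7 genes was 0.15 with TPM, -0.10 when centred on the median of all genes, -0.16 with the TMM factors and -0.17 with the DESeq2 size factors, against 0.05. Pathway genes past 2-fold lower numbered 4 when centred, 5 with the TMM factors, 5 with the size factors and 1 with counts and no length, against 0. In the same order, 9.18%, 10.6%, 10.7% and 5.62% of all tested genes were past 2-fold lower, against 6.41%. The TPM, centring, TMM and size factor rescalings move every gene almost equally by construction, while leaving out length does not. Over all genes, 2521 higher and 953 lower became 4735 and 1897 with no filter, 1606 and 651 with a pseudocount of 1 FPKM, 1857 and 1570 with the TMM factors, and 1851 and 1586 with the size factors. The depth limits RPS6KA2 and MRAS, with 90 and 91 counts without Dox.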

Other observations

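The MAP kinase modules that run beside ERK were also listed. Of 12 tested genes, 2 were past 2-fold higher with Dox, 16.7% beside the background of 17.0%, and 0 lower, beside 6.41%, and the median log2 ratio was 0.31 beside 0.15 over all genes tested. MAP2K5, the kinase that activates ERK5, was listed at 7.64 and 21.4 FPKM, a log2 ratio of 1.47 (counting interval 1.33 to 1.62). MAPK7, which encodes ERK5 itself, was named after its values were seen and was listed at 9.90 and 7.70 FPKM, a log2 ratio of -0.36. MAPK10, a JNK gene, was the other one past 2-fold, at 1.98 and 4.77 FPKM and 164 and 441 counts, and is named because the count is 2. It was short of 2-fold with a pseudocount of 1 FPKM (0.95). MAP2K3, a p38 activator, and MAPK12, which encodes p38 gamma, were chosen after their values were seen as the lowest of the list, at 28.35 and 14.96 FPKM and at 32.8 and 16.8 FPKM. Their log2 ratios of -0.92 and -0.96 were short of 2-fold with the deposited FPKM and past it with the TMM factors (-1.13 and -1.17).

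Among the RSK and MSK kinases, the substrates of ERK that phosphorylate other proteins, the members differed in direction. With the deposited FPKM, RPS6KA2 was the only one of the 5 tested genes past 2-fold. Of all genes tested, 17.0% were past 2-fold higher and 6.41% past 2-fold lower, so 1 of 5 is near the background. RPS6KA1 was listed at 22.3 and 13.1 FPKM, RPS6KA3 at 22.6 and 21.0 FPKM, RPS6KA4 at 18.2 and 10.4 FPKM and RPS6KA5 at 13.5 and 22.7 FPKM. RPS6KA6, with 1 count without Dox and 0 with Dox, was not tested. RPS6KA4 passed 2-fold lower with the TMM factors (-1.02) and the size factors (-1.03). These genes, apart from RPS6KA2, were chosen after their values were seen. PEA15, which holds ERK in the cytoplasm, and PEBP1, an inhibitor of RAF, were also chosen after their values were seen, at 60.5 and 31.4 FPKM (log2 ratio -0.95, and -1.16 with the TMM factors) and at 311 and 203 FPKM (log2 ratio -0.62).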
